A study of Mus musculus with 6 samples.

Results

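The genes described here are 37 interferon-stimulated genes and their regulators, followed in RNA from cells isolated as primary endothelial cells from mouse lungs. They were taken by symbol from a list written for this work, which names antiviral genes induced by interferon by family together with the STAT and IRF factors that control them. All 37 were found among the 56941 genes of the count table, and all 37 passed the filter on low counts, as did 18562 genes in all. The FL group (3 libraries) carries a floxed Fundc1 gene (genotype label FUNDC1-FLOX), and the EC-KO group (3 libraries) is labelled FUNDC1-KO, with EC-KO in its sample titles and the loss described as endothelial in the series title. Fundc1 encodes a mitophagy receptor of the outer mitochondrial membrane, and the series concerns pulmonary hypertension. Per the labels, isolation used magnetic beads, dead cells were taken out, and the medium was ECM with serum. The sources used here give neither the Cre line, the age of the mice nor the antibody on the beads, and sample titles call the cells PAECs. The labels do not say whether each library is a different mouse, so every p-value reflects the spread between these libraries alone, which may be technical.

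Interferons are secreted proteins that cells release on sensing viral or displaced nucleic acid. Type I interferons, such as interferon beta, bind the receptor made of IFNAR1 and IFNAR2, and its kinases JAK1 and TYK2 then activate STAT proteins, STAT2 among them. With IRF9 these form the complex ISGF3, which binds the interferon-stimulated response element (ISRE) in the promoters of antiviral genes, while interferon gamma acts on the gamma-activated sequence (GAS). Endothelial cells respond to both types, and several of the induced genes, among them STAT2, IRF9 and IRF7, encode parts of the pathway itself.

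Libraries held between 26.7 M and 34.3 M counts. Levels are given as CPM, counts relative to a library total scaled by TMM, and levels of different genes are compared only as TPM, which also divides by gene length. Fundc1 was at 25.1, 32.0 and 30.7 CPM in FL 1, 2 and 3 and at 14.1, 18.2 and 12.8 CPM in EC-KO 1, 2 and 3 (-0.96 ± 0.19 as log2 fold change with its SE; adjusted p = 0.00796 in edgeR's quasi-likelihood test, the test behind every adjusted p given here). Markers of several cell types differed between the groups, so levels describe the whole isolate, and in bulk RNA fewer cells of a type and less RNA per cell cannot be told apart. Of 18 pan-endothelial markers 11 were lower and 0 higher (summed level 10350 to 14410 CPM in FL, 3979 to 7931 in EC-KO). Among 14 macrophage and monocyte markers 12 were lower and 0 higher (5524 to 7162 CPM in FL, 2453 to 3291 in EC-KO), and among 14 epithelial markers 13 were higher and 0 lower (1870 to 4427 CPM in FL, 11390 to 16910 in EC-KO). Fibroblast markers were higher for 8 of 12 and lower for 0 (406.7 to 521.5 CPM in FL, 830.2 to 1926 in EC-KO). Smooth muscle and pericyte markers were lower for 8 of 10 (578.8 to 804.7 CPM, then 268.5 to 383.6) and neutrophil markers for 6 of 7 (1065 to 2637 CPM, then 391.8 to 458.6), with 0 higher in both. Over all genes tested, 13.5% were higher and 13.5% lower at the same threshold (adjusted p under 0.05 in edgeR). No marker of these lists was at 0 in any library. The part of these shifts in the results below was not tested unless a value is given.

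Most of the interferon genes did not pass the test, and the few that did moved in both directions. At an adjusted p under 0.05, 7 of 37 were called, against 27.1% of all genes tested. In EC-KO 4 of 37 rose, namely Irf9, Ifit3, Xaf1 and Stat2, and 3 fell, namely Ifnb1, Oas3 and Irf1. These are shares of 10.8% and 8.11%, where 13.5% of all genes tested were called higher and 13.5% lower, so neither share was above that of the background. The median log2 fold change of EC-KO over FL was 0.33 over the members and 0.03 over all genes tested. Values were positive for 25 of the 37 members and for 9577 of the 18562 genes tested. The groups did not overlap for 4 members with EC-KO above FL (Irf9, Stat2, Irf7 and Isg20), where 22.6% of all genes did so, and for 3 with EC-KO below FL (Ifnb1, Oas3 and Irf1), where 22.8% did so. Irf9, Oas3 and Ifnb1 stayed called in all 16 alternative analyses, and the other 4 did not. The number called higher was 7 without FL 1 (10.7% of all genes then) and 1 when FL 2, FL 3, EC-KO 2 or, in turn, EC-KO 3 was left out. All genes called, in either direction, numbered 2626, 2547, 6740 and 3422 in those fits, in that order, against 5029 with all libraries. The number called lower was 2 in every fit with a library left out except that without EC-KO 2, which gave 3. The median of the members was 0.42 without FL 1, 0.13 without FL 3 and 0.07 without EC-KO 2.

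**Figure D1:**
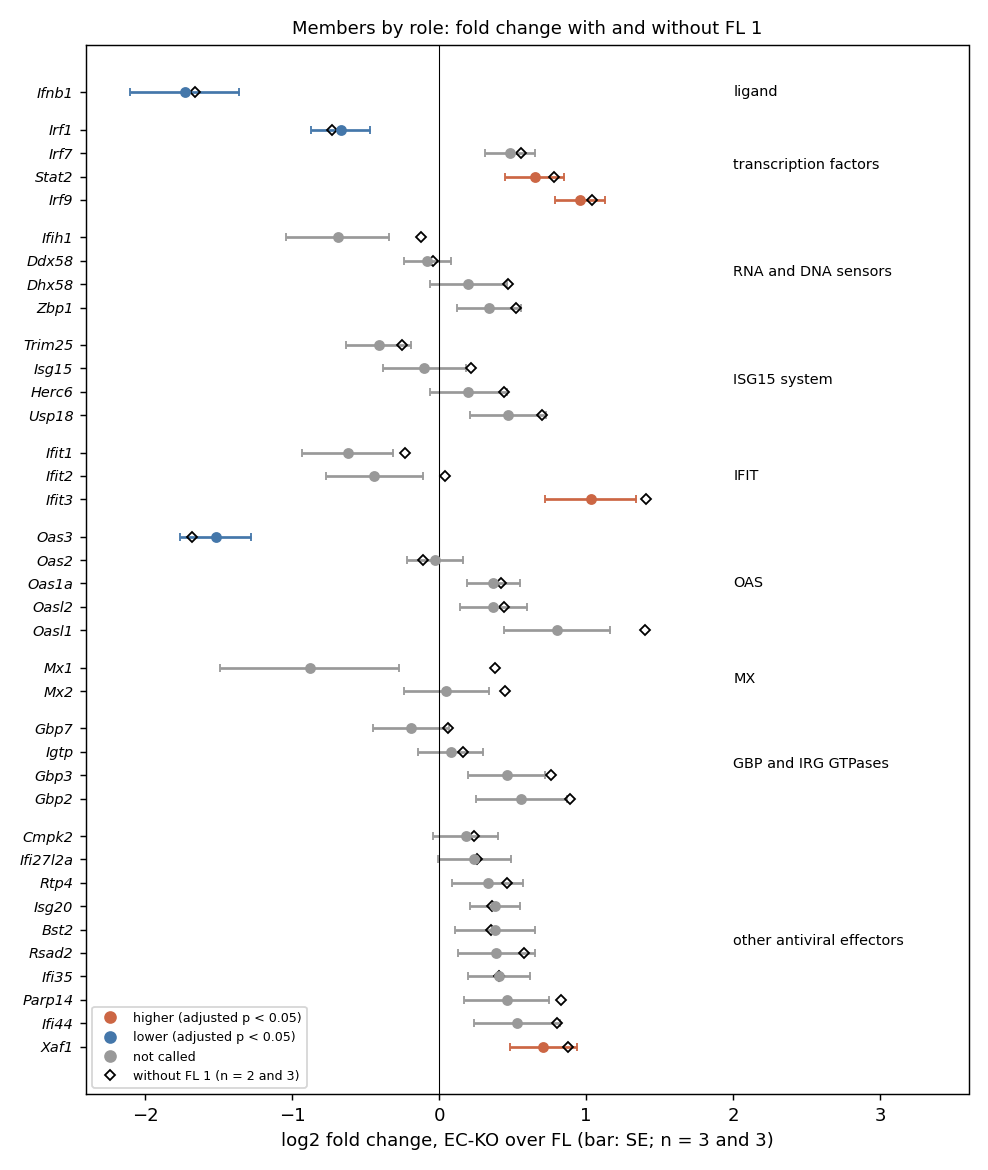
Log2 fold change of EC-KO over FL (x axis) for each of the 37 genes, grouped by role, with its standard error (n = 3 and 3 libraries); open diamonds give the value without FL 1 (n = 2 and 3). Irf9 (0.96), Ifit3 (1.03), Xaf1 (0.71) and Stat2 (0.65) were called higher and Ifnb1 (-1.73), Oas3 (-1.52) and Irf1 (-0.67) lower, and Mx1 changed side from -0.88 to 0.38 when FL 1 was left out.

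Much of the spread of these genes lay between libraries of 1 group. FL 1 was the highest FL library for 30 of 37 members (35.8% of all genes tested) and the highest of all 6 libraries for 12 (10.7% of all genes tested). Its median excess over the mean of FL 2 and FL 3 was 0.53 on the log2 scale over the members and -0.01 over all genes. EC-KO 2 was the highest EC-KO library for 30 of 37 members (44.1% of all genes tested). Mean log2 levels of the members relative to the FL average stood at 0.39 in FL 1, -0.18 in FL 2 and -0.21 in FL 3. The EC-KO libraries were at -0.17, 0.41 and 0.14, so FL 1 and EC-KO 2 stood at nearly the same height. Mean levels over all genes tested ran from -0.01 to 0.06. Epithelial markers on the same scale were at 0.54, -0.32 and -0.23 in FL 1, 2 and 3. They were at 2.16, 2.72 and 2.07 in the EC-KO libraries, again highest in FL 1 and EC-KO 2 within their groups. Endothelial markers were at -0.64 in EC-KO 2 and at -1.59 and -1.60 in the other EC-KO libraries. Neutrophil markers set FL 1 apart in the other direction, at -0.85 against 0.54 and 0.31 in FL 2 and FL 3, and fibroblast markers were highest in EC-KO 2 (1.75, 2.36 and 1.01 in the EC-KO libraries). The part of these 4 lists in the spread was not tested.

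**Figure D2:**
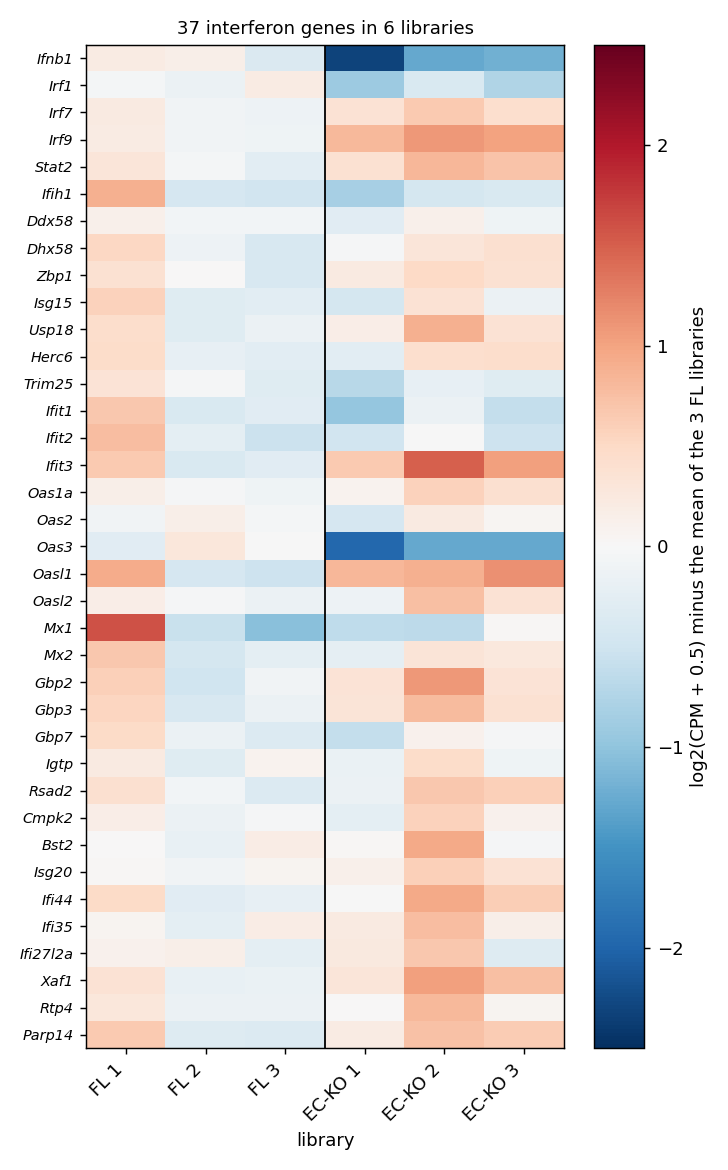
Level of each of the 37 genes (rows, by role) in each of the 6 libraries (columns), as log2(CPM + 0.5) minus the mean of the 3 FL libraries. The FL 1 column is the highest of FL for 30 genes and the EC-KO 2 column the highest of EC-KO for 30, while Ifnb1 and Oas3 are low in all 3 EC-KO libraries.

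The ligand in the list was lower in the knockout. Ifnb1, which encodes interferon beta, was at 8.98, 8.71 and 5.97 CPM in FL 1, 2 and 3 and at 1.16, 2.89 and 3.09 CPM in EC-KO 1, 2 and 3, from 237, 285 and 196 counts and from 40, 92 and 100 counts. Every EC-KO library lay below every FL library. The log2 value was -1.73 ± 0.37 (SE; adjusted p = 0.0104 in edgeR), between -1.98 and -1.40 when single libraries were left out. Other interferon genes were nearly silent: of 19 further type I and type III genes, 11 had 0 counts in all 6 libraries, which allows up to 3 counts or 0.087 to 0.11 CPM per library, and no other exceeded 6 counts in any library. Ifng, the gene of interferon gamma, was at 14.5, 10.1 and 11.8 CPM in FL and 13.4, 14.9 and 8.57 CPM in EC-KO, with overlapping groups (0.02 ± 0.25, adjusted p = 0.954). Macrophages and other myeloid cells are known sources of interferon beta, and the markers of that lineage given above were lower in the same libraries. Of 9 plasmacytoid and conventional dendritic cell markers 3 were lower, 0 higher and 6 not called, where 13.5% of all genes tested were called in each direction. The part of these differences in the Ifnb1 value was not tested.

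The Ifnb1 promoter is a textbook example of an enhancer on which NF-kB and IRF proteins assemble, and its upstream bases are shown with the NF-kB site known as positive regulatory domain II in capitals. They are the first 180 of the 250 bases before the RefSeq start, at chr4:88522865-88523044, minus strand, from RefSeq's annotation of GRCm38.p6. The bases nearest the start are not shown.
Ifnb1: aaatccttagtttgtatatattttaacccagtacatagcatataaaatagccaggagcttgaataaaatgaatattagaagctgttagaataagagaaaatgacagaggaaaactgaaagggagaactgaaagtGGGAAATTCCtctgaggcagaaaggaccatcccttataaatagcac
The capitals match the kB consensus, searched on both strands, and start at -116 from the RefSeq start of Ifnb1. A match to that consensus lies in 8.46% of 32851 RefSeq promoter windows of 300 bases.

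The transcription factors moved apart. Irf9, the DNA-binding part of ISGF3, was at 126, 103 and 101 CPM in FL 1, 2 and 3 and at 192, 231 and 219 CPM in EC-KO 1, 2 and 3. The groups did not overlap. Mean levels rose from 110.1 ± 14.2 to 214.1 ± 19.7 CPM (SD, n = 3 per group), or by 0.96 ± 0.17 on the log2 scale (adjusted p = 0.00416 in edgeR) and by 1.04 with FL 1 left out (adjusted p = 0.00814). Stat2, its partner, was at 160, 126 and 108 CPM in FL and at 169, 232 and 213 CPM in EC-KO. All EC-KO libraries lay above the FL libraries, but EC-KO 1 exceeded FL 1 only narrowly. The change was 0.65 ± 0.20 (adjusted p = 0.0417). Leaving out FL 2 or FL 3 ended the call (adjusted p = 0.138 and 0.185), and so did leaving out any EC-KO library (0.0509, 0.0616 and 0.110 for libraries 1, 2 and 3). Irf7, the factor that amplifies type I interferon production, was at 114, 91.7 and 90.4 CPM in FL and 126, 155 and 131 CPM in EC-KO. Its groups did not overlap, and it did not pass the test (0.48 ± 0.17, adjusted p = 0.0616). Irf7 was called with 4 other settings, namely upper-quartile scaling, library-size scaling, a filter of 1 CPM and DESeq2 (adjusted p = 0.0355 to 0.0462).

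Irf1, a factor induced by interferon gamma and by NF-kB, went the other way. Among the 37 genes it had the highest level per length in FL, at 754 TPM, and was at 473 TPM in EC-KO. It was at 824, 769 and 984 CPM in FL 1, 2 and 3 and at 458, 656 and 510 CPM in EC-KO 1, 2 and 3, without overlap. Its log2 fold change was -0.67 ± 0.20 (adjusted p = 0.0357). Leaving out any FL library ended the call (adjusted p = 0.0588, 0.0710 and 0.128 for libraries 1, 2 and 3), as did leaving out EC-KO 1 or EC-KO 3 (0.128 and 0.105), with fold changes between -0.86 and -0.56. Per length, Irf9 was at 0.0756 to 0.113 of the Irf1 level in FL and at 0.260 to 0.317 in EC-KO. An antisense gene, Gm17334, overlaps part of Irf1, and without a stated strand setting their reads cannot be told apart.

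**Figure D3:**
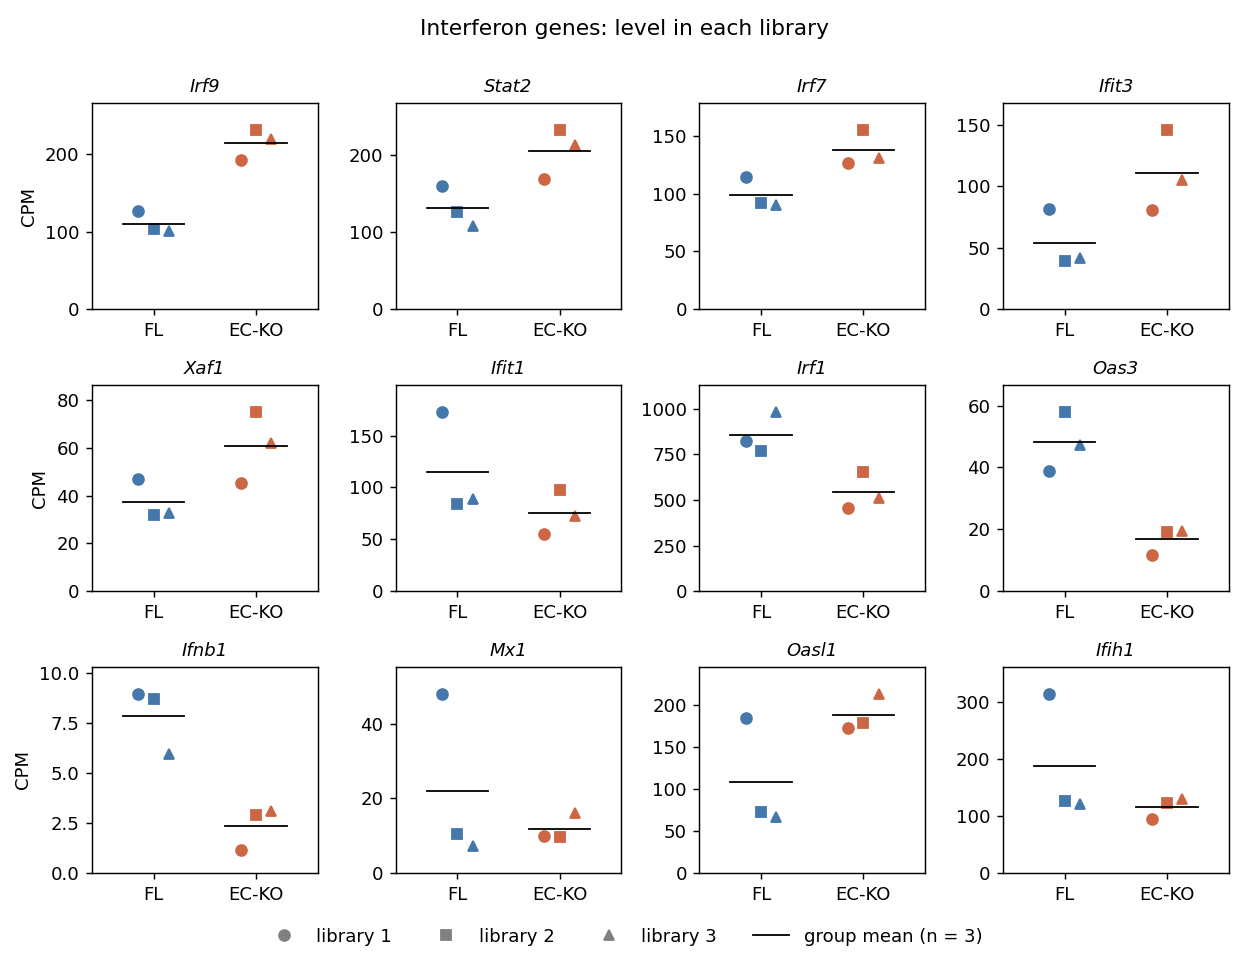
CPM (y axis, from 0) of 12 of the genes in each library, with a line at the mean of each group (n = 3). Irf9 and Irf7 are higher in every EC-KO library and Irf1, Oas3 and Ifnb1 lower, while Mx1, Ifit1, Ifih1 and Oasl1 have 1 high FL value, that of FL 1.

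Promoters of a factor that rose and of one that fell are shown with the interferon motif in capitals. In Stat2 (chr10:128270248-128270497, plus strand) the capitals mark the ISRE core, which is GAAA, any 2 bases and GAAA again, on either strand. In Irf1 (chr11:53769764-53770013, plus strand, the first of the RefSeq starts) they mark the GAS core, which is TTC, any 3 bases and GAA.
Stat2: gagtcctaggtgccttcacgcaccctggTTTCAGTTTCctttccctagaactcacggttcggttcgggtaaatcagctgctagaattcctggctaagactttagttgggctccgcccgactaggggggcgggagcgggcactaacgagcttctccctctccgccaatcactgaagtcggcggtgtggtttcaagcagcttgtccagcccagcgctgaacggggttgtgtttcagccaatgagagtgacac
Irf1: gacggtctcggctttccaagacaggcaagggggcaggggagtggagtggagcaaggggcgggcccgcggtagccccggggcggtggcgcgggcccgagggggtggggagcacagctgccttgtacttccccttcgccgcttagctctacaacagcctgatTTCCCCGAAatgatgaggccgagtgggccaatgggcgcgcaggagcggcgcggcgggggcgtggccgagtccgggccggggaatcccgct
The Stat2 match starts at -222 and the Irf1 match at -90, counted from the RefSeq start in GRCm38.p6. No ISRE core lies in the Irf1 windows, and neither motif in those of Irf9.

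The sensors of foreign nucleic acid among the members did not pass the test in 4 of 4 cases, where 27.1% of all genes tested passed. Ifih1, which encodes the long double-stranded RNA sensor MDA5, was at 315, 126 and 121 CPM in FL 1, 2 and 3 and at 94.8, 124 and 130 CPM in EC-KO 1, 2 and 3. FL 1 alone stood above the rest, and the log2 fold change of -0.69 ± 0.35 (adjusted p = 0.178) was -0.12 without it. Ddx58, the gene of the RNA sensor RIG-I, ran from 109 to 126 CPM in FL and from 94.3 to 125 CPM in EC-KO (-0.08 ± 0.16, adjusted p = 0.739; -0.04 without FL 1). Dhx58, which encodes the regulator LGP2, was at 21.8, 13.9 and 11.4 CPM in FL and at 14.9, 18.8 and 20.2 CPM in EC-KO (0.20 ± 0.26, adjusted p = 0.599; 0.47 without FL 1). Zbp1, a sensor of Z-form nucleic acid that triggers cell death, was at 30.6, 23.6 and 17.5 CPM in FL and at 27.2, 32.9 and 30.6 CPM in EC-KO (0.34 ± 0.22, adjusted p = 0.270; 0.52 without FL 1).

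ISG15 is a ubiquitin-like protein that is attached to other proteins. The 4 members of its system did not pass the test, where 27.1% of all genes tested did. Isg15 itself was at 92.4, 50.2 and 51.7 CPM in FL and at 45.8, 79.7 and 55.9 CPM in EC-KO. The highest value was again that of FL 1, and the change of -0.10 ± 0.28 (adjusted p = 0.825) became 0.22 without it. Usp18, the gene of the protease that removes ISG15 and also blocks the type I receptor, ran from 12.4 to 21.0 CPM in FL and from 17.2 to 28.8 CPM in EC-KO, a difference of 0.47 ± 0.26 (adjusted p = 0.210). Herc6, which encodes a ligase for ISG15, was at 47.8, 29.9 and 28.7 CPM in FL and at 28.8, 46.4 and 47.2 CPM in EC-KO (0.20 ± 0.26, adjusted p = 0.592; 0.44 without FL 1). The ubiquitin ligase gene Trim25, whose product acts on RIG-I, was at 388, 298 and 246 CPM in FL and at 189, 265 and 248 CPM in EC-KO (-0.41 ± 0.22, adjusted p = 0.190; -0.25 without FL 1).

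The IFIT genes, whose products bind viral RNA and translation factors, lie in a cluster on chromosome 19 and did not move together. Ifit3 was at 81.4, 39.4 and 42.0 CPM in FL 1, 2 and 3 and at 80.6, 146 and 105 CPM in EC-KO 1, 2 and 3. The values of FL 1 and EC-KO 1 were nearly equal, so the groups overlapped. Ifit3 rose by 1.03 ± 0.31 (adjusted p = 0.0402 in edgeR), by 1.41 without FL 1 (adjusted p = 0.0108), and missed the threshold without FL 2 or FL 3 (adjusted p = 0.138 and 0.155) and without EC-KO 2 or EC-KO 3 (0.105 and 0.0733). Ifit1 was at 173, 83.7 and 88.9 CPM in FL and at 55.2, 97.8 and 72.1 CPM in EC-KO. It did not pass the test, with a value of -0.62 ± 0.31 (adjusted p = 0.169), which was -0.23 without FL 1 (adjusted p = 0.535). Ifit2 was at -0.44 ± 0.33 (adjusted p = 0.353) and at 0.04 without FL 1.

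Within each group, the ratio of Ifit3 to Ifit1 varied far less than either gene. Per length, the ratio was 0.717, 0.715 and 0.719 in FL 1, 2 and 3, with counting errors of 0.019, 0.024 and 0.023 (SE). In EC-KO 1, 2 and 3 it was 2.22, 2.26 and 2.22, with counting errors of 0.066, 0.052 and 0.060. Within each group the spread between libraries was smaller than the counting error, although Ifit1 itself ranged from 83.7 to 173 CPM in FL. Between the groups the ratio differed 3.12-fold. The copy Ifit3b showed the same direction: Ifit3b to Ifit1 was 0.148 to 0.218 in FL and 0.487 to 0.615 in EC-KO, while Ifit3b to Ifit3 (0.206 to 0.303 and 0.219 to 0.276) and Ifit2 to Ifit1 (0.194 to 0.257 and 0.244 to 0.331) overlapped. Ifit3 and Ifit3b are near-identical copies, and alignments to several places were set aside by the authors' counting, so their counts are uncertain. These ratios were chosen after the levels had been seen and are given without a test.

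**Figure D4:**
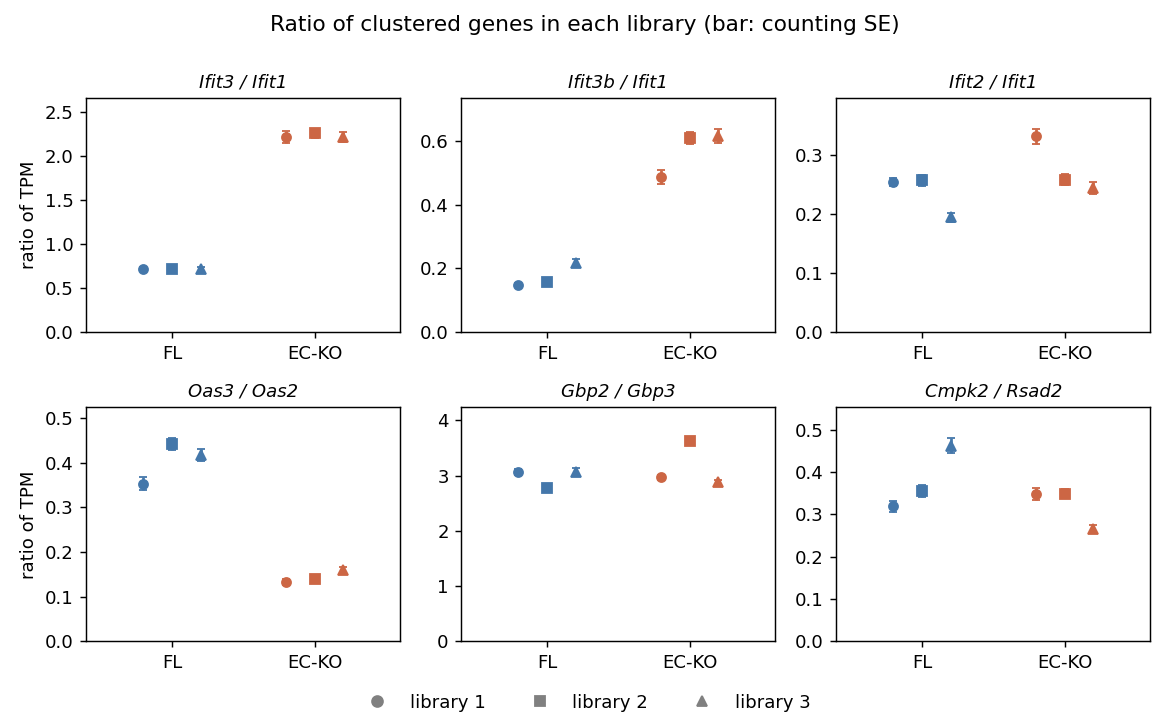
Ratio of TPM (y axis, from 0) of genes that lie in 1 cluster, in each library, with the standard error from counting. Ifit3 to Ifit1 is 0.715 to 0.719 in FL and 2.22 to 2.26 in EC-KO and Oas3 to Oas2 is 0.353 to 0.442 and 0.133 to 0.160, while the ratios Ifit2 to Ifit1, Gbp2 to Gbp3 and Cmpk2 to Rsad2 overlap.

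The promoters of Ifit1 and Ifit3 are shown because both carry the same motifs and the ratio of these genes differed between the groups. They are the 250 bases before the RefSeq starts in GRCm38.p6, at chr19:34640639-34640888 and chr19:34583279-34583528, both on the plus strand, with the ISRE cores in capitals.
Ifit1: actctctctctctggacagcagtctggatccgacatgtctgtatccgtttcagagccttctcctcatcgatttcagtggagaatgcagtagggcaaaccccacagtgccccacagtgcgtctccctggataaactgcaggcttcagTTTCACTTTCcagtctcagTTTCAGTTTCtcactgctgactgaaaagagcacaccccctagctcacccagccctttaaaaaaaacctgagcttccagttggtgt
Ifit3: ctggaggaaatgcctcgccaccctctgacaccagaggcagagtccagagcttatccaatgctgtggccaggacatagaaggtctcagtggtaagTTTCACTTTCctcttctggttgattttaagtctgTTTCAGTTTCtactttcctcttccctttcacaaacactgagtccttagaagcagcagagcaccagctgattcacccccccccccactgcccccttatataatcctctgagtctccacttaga
Both hold the same pair of matches in the same order, starting at -104 and -85 in Ifit1 and at -156 and -122 in Ifit3.

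Among the OAS genes, whose enzymes sense double-stranded RNA and make oligoadenylates, Oas3 stood apart. It was at 39.0, 58.0 and 47.3 CPM in FL 1, 2 and 3 and at 11.8, 19.3 and 19.4 CPM in EC-KO 1, 2 and 3. No EC-KO library reached the lowest FL library. Oas3 fell by 1.52 on the log2 scale (SE 0.24, adjusted p = 0.00296 in edgeR), with values between -1.68 and -1.32 when single libraries were left out. Its cluster neighbours Oas2 and Oas1a on chromosome 5 did not pass the test. Oas2 was at 69.5, 82.6 and 71.4 CPM in FL and at 55.6, 86.8 and 76.5 CPM in EC-KO (-0.03 ± 0.19, adjusted p = 0.924; -0.11 without FL 1). Oas1a, which has near-identical copies in the cluster, ran from 22.1 to 26.4 CPM in FL and from 25.3 to 35.8 CPM in EC-KO (0.37 ± 0.18, adjusted p = 0.155). A further Oas1 gene outside the members, Oas1b, was called higher, opposite to Oas3 (0.93 ± 0.22, adjusted p = 0.0161 in edgeR). The Oas1b call was lost without FL 2, FL 3 or EC-KO 3 (adjusted p = 0.0735, 0.0745 and 0.05). The ratio of Oas3 to Oas2 per length was 0.353 to 0.442 in FL and 0.133 to 0.160 in EC-KO. The other OAS-like genes, Oasl1 (0.80 ± 0.36, adjusted p = 0.127) and Oasl2 (0.37 ± 0.23, adjusted p = 0.252), did not pass. Oasl1, which restrains Irf7 translation, was at 185, 72.4 and 67.0 CPM in FL and 173, 179 and 214 CPM in EC-KO, and without FL 1 it was called higher (1.40, adjusted p = 0.00313).

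The Oas3 promoter is shown as that of the member with the smallest p, at chr5:120777660-120777909, minus strand, GRCm38.p6. Its ISRE core, in capitals, starts at -75.
Oas3: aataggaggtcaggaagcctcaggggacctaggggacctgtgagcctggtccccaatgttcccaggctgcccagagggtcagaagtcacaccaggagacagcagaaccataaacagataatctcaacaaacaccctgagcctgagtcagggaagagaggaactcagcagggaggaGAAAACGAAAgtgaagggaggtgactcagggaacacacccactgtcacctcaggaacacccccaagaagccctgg

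Members of the MX family, GTPases that block viral replication, gave the widest spread within a group. Mx1 was at 48.0, 10.5 and 7.34 CPM in FL 1, 2 and 3 and at 9.90, 9.72 and 16.0 CPM in EC-KO 1, 2 and 3. A single library, FL 1, held the high value, and the change of -0.88 ± 0.61 (adjusted p = 0.312) was 0.38 without it (adjusted p = 0.397). Mx2 ran from 37.8 to 82.5 CPM in FL and from 43.8 to 64.0 CPM in EC-KO (0.05 ± 0.29, adjusted p = 0.910), and its value without FL 1 was 0.45 (adjusted p = 0.187).

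GTPases induced mainly by interferon gamma, which attack the vacuoles of intracellular parasites and bacteria, did not pass the test in 4 of 4 cases. Of all genes tested, 27.1% passed. Gbp2 was among the most abundant members per length, at 378 TPM in FL and, highest of the 37 there, 552 TPM in EC-KO. Its libraries were at 392, 183 and 244 CPM and at 328, 553 and 329 CPM, overlapping (0.56 ± 0.31, adjusted p = 0.206; 0.89 and 0.0646 without FL 1). Gbp3 was at 0.46 ± 0.26 (adjusted p = 0.209) and was called without FL 1 (0.76, adjusted p = 0.0436). Gbp7 (-0.19 ± 0.26) and Igtp, which encodes IRGM3 (0.08 ± 0.22), had adjusted p-values of 0.615 and 0.821, and without FL 1 they were at 0.06 and 0.16. Igtp shares 8.01% of its length with Irgm2. Of 14 further GBP and IRG genes 1 fell (7.14%, against 13.5% of all genes tested) and 0 rose. The gene that fell was Iigp1 (-1.12 ± 0.28, adjusted p = 0.0198), which lost its call without FL 3 (adjusted p = 0.0695), EC-KO 1 (0.0716) or EC-KO 3 (0.0640).

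The remaining antiviral genes all had positive values, as did 9577 of the 18562 genes tested. In this group 1 of 10 was called higher (10%, against 13.5% of all genes tested). Xaf1, a promoter of cell death induced by interferon, was at 47.0, 32.0 and 32.7 CPM in FL and at 45.4, 75.1 and 62.0 CPM in EC-KO. EC-KO 1 lay within the FL range. Xaf1 rose by 0.71 ± 0.23 (adjusted p = 0.0490) and missed the threshold when FL 2 or FL 3 was left out (adjusted p = 0.168 and 0.185), when EC-KO 2 or EC-KO 3 was (0.0927 and 0.111), and with library sizes that leave out mitochondrial genes (0.0565). Isg20, an exonuclease gene, was at 33.4, 30.7 and 34.2 CPM in FL and at 35.9, 49.9 and 42.1 CPM in EC-KO. Its groups did not overlap, and it did not pass the test (0.38 ± 0.17, adjusted p = 0.127). Parp14, an ADP-ribosyltransferase gene, was at 526, 270 and 266 CPM in FL and 388, 558 and 519 CPM in EC-KO (0.46 ± 0.29, adjusted p = 0.257), and without FL 1 it was called higher (0.83, adjusted p = 0.0337). Bst2, which encodes tetherin, a protein that holds virions at the cell surface, was high in EC-KO 2 alone (94.0 CPM against 42.4 to 55.1 CPM in the other 5 libraries). Its change of 0.38 ± 0.27 was -0.04 without EC-KO 2.

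Others in this group gave smaller values. Rsad2, the gene of the antiviral enzyme viperin, was at 104, 75.4 and 62.2 CPM in FL and at 71.1, 126 and 119 CPM in EC-KO (0.39 ± 0.26, adjusted p = 0.290). Its neighbour on chromosome 12, the nucleotide kinase gene Cmpk2, ran from 25.7 to 31.9 CPM in FL and from 23.9 to 42.2 CPM in EC-KO (0.18 ± 0.22, adjusted p = 0.582), so both pairs of groups overlapped. Ifi44 (0.53 ± 0.29), Ifi35 (0.41 ± 0.21), Rtp4 (0.33 ± 0.24) and Ifi27l2a (0.24 ± 0.25) had adjusted p-values of 0.199, 0.184, 0.335 and 0.503, and Ifi44 was at 0.80 without FL 1. Without EC-KO 2, Cmpk2 and Ifi27l2a were at -0.10 and -0.05 and Rtp4 at 0.00.

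Upstream of these genes, no receptor passed the test, and several signalling genes did, where 27.1% of all genes tested passed. Of 6 receptor genes 0 were called; Ifnar1 was at -0.26 ± 0.19 (adjusted p = 0.341), Ifnar2 at -0.04 ± 0.17, Ifngr1 at 0.10 ± 0.19, Ifngr2 at 0.22 ± 0.17, Il10rb at 0.28 ± 0.29 and Ifnlr1, of the type III receptor, at 0.57 ± 0.25 (adjusted p = 0.124). Of the kinase and STAT genes described, Stat3, which carries signals of the IL-6 family, was called. Stat3 was at 710, 508 and 533 CPM in FL and at 1297, 1142 and 1371 CPM in EC-KO (1.12 ± 0.19, adjusted p = 0.00433). The kinases Jak1 (0.34 ± 0.17), Jak2 (0.10 ± 0.21) and Tyk2 (-0.41 ± 0.17) did not pass (adjusted p = 0.165, 0.742 and 0.0968).

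Inhibitors of this signalling moved both ways. Socs3, which restrains STAT3 signalling, was at 1559, 1264 and 1635 CPM in FL and at 671, 635 and 613 CPM in EC-KO (-1.22 ± 0.18, adjusted p = 0.00210). Ptpn6, a phosphatase gene of blood cells, fell by 1.47 (SE 0.21, adjusted p = 0.00216), beside lower macrophage markers (12 of 14), whose part was not tested. Ptpn2 (0.74 ± 0.19) and Cish (0.64 ± 0.16) rose (adjusted p = 0.0193 and 0.0191). The Ptpn2 call was lost when FL 2, FL 3 or EC-KO 1 was left out (adjusted p = 0.0904, 0.0942 and 0.0588), and that of Cish when any FL library was (0.0524, 0.0832 and 0.0969 for libraries 1, 2 and 3). Socs1 (0.31 ± 0.27), Ptpn1 (-0.05 ± 0.18) and Pias1 (0.42 ± 0.15, adjusted p = 0.0682) did not pass. Pias1 was called without EC-KO 2 (adjusted p = 0.0172), with upper-quartile scaling (0.0445), the filter of 1 CPM (0.0490) and DESeq2 (0.0477).

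Other IRF genes moved both ways: of those described, Irf4 and Irf8 rose and Irf2 and Irf5 fell. Irf4, which acts in lymphocytes and dendritic cells, was at 102, 72.5 and 44.9 CPM in FL and at 534, 179 and 557 CPM in EC-KO. EC-KO 2 was the lowest EC-KO library, and still above FL (2.53 ± 0.45, adjusted p = 0.00471; 0.0587 with no filter on low counts). Irf8, of myeloid and dendritic development, was at 174, 102 and 101 CPM in FL and at 351, 242 and 316 CPM in EC-KO (1.27 ± 0.25, adjusted p = 0.00768), while macrophage markers were lower and, of 11 lymphocyte markers, 2 were higher and 1 lower. Irf2, an antagonist of Irf1, fell by 0.95 (SE 0.18, adjusted p = 0.00552), and Irf5, a factor of myeloid cells, by 0.74 (SE 0.19, adjusted p = 0.0217), where Irf5 was not called without FL 1 or FL 2 (adjusted p = 0.0532 and 0.0627) or with library-size scaling (0.0556). Irf3, which switches on Ifnb1, was at -0.42 ± 0.15 (adjusted p = 0.0682; 0.0467 in DESeq2).

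**Figure D5:**
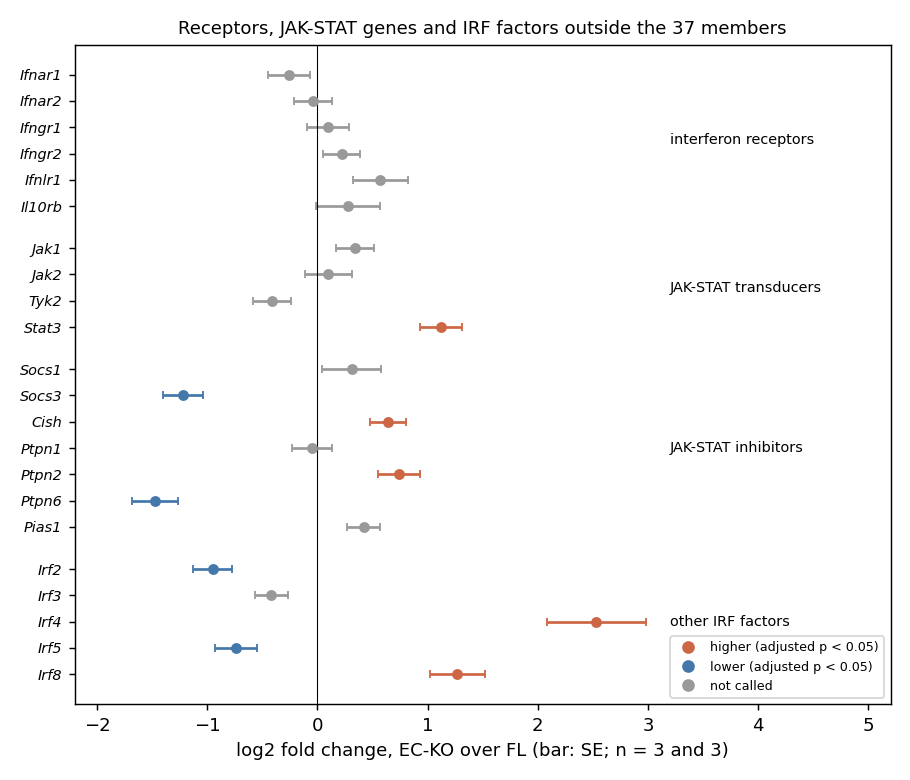
Log2 fold change of EC-KO over FL (x axis) with its standard error (n = 3 and 3) for receptor, JAK-STAT, inhibitor and IRF genes outside the 37. None of the 6 receptors was called, Stat3, Cish, Ptpn2, Irf4 and Irf8 were called higher, and Socs3, Ptpn6, Irf2 and Irf5 lower.

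Of 11 sensors, adaptors and kinases outside the members that lead to interferon, 3 fell and 0 rose. These are shares of 27.3% and 0%, where 13.5% of all genes tested were called lower and 13.5% higher. Mavs, the mitochondrial adaptor of RIG-I and MDA5, was at 21.9, 27.3 and 23.0 CPM in FL and at 8.75, 10.3 and 9.12 CPM in EC-KO. The groups lay far apart, and the change was -1.36 ± 0.18 (adjusted p = 0.00130). Tlr3, an endosomal sensor of double-stranded RNA, fell by 1.17 (SE 0.26, adjusted p = 0.0123; 0.0503 without FL 3). Ikbke, a kinase of IRF3, fell by 0.90 (SE 0.29, adjusted p = 0.0457) and lost its call without FL 1 or FL 3 (adjusted p = 0.115 and 0.0735) and without any EC-KO library (0.117, 0.0869 and 0.0525 for libraries 1, 2 and 3). Its call was also lost with upper-quartile (0.0664) and library-size scaling (0.0782), the filter of 1 CPM (0.0515) and limma-voom (0.0541).

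Further genes known to be induced by interferon were split in the same way. Of 47 tested, 7 rose (14.9%) and 6 fell (12.8%), near the 13.5% of all genes in each direction. The rises with the smallest p were those of the apolipoprotein L genes Apol9b (1.66 ± 0.32) and Apol9a (2.12 ± 0.43, from 36, 16 and 27 counts in FL and 111, 172 and 96 in EC-KO), and falls with a small p included those of Ifitm1, which keeps viruses from fusing with the membrane (-1.25 ± 0.18), and Samhd1, which depletes nucleotides (-0.79 ± 0.17). Ifitm1 was at 78.4, 106 and 92.6 CPM in FL and at 39.6, 44.6 and 32.4 CPM in EC-KO. Its neighbour family member Ifitm3 was at 0.33 ± 0.31 (adjusted p = 0.455). Of 19 genes of antigen presentation and chemokines 2 rose and 2 fell (10.5% each), with B2m (0.14 ± 0.21) and H2-K1 (0.18 ± 0.17) not called. Ccl5, a chemokine gene of lymphocytes, rose by 1.41 ± 0.38 (adjusted p = 0.0259; 0.0910, 0.0995 and 0.0945 without FL 2, FL 3 and EC-KO 1, and 0.128 with no filter). Over the whole list of 116 tested pathway genes outside the 37, 15 rose (12.9%) and 16 fell (13.8%), with a median of -0.05. The rises numbered 6 without FL 2 or FL 3 and 9 without EC-KO 3. The falls numbered 9 without FL 1, 10 without FL 3 or EC-KO 1 and 25 without EC-KO 2. All genes called, in either direction, numbered 4366, 2626 and 2547 without FL 1, 2 and 3, against 5029 with all libraries. Without EC-KO 1, 2 and 3 they numbered 2832, 6740 and 3422.

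The interferon motif lay in promoters of some called and some uncalled members. RefSeq windows of GRCm38.p6, from 250 bases before to 50 after each start, were at hand for 28 of the 37 genes (34 windows). The ISRE core lay in 14 of the 34 windows (41.2%) and in 3.44% of all 32851 windows. By gene, 2 of 4 that rose, 1 of 3 that fell and 11 of 21 not called had it. These sets are small, and a relation of the motif to the direction was not tested. The GAS core lay in 8 of the 34 windows and in 8.30% of all windows. In the Bst2 window an ISRE and a GAS match overlap. A match describes letters in a window, not a site in use.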

How the data were processed

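RNA was measured in 6 libraries (3 FL, 3 EC-KO) grouped by sample title. The authors deposited raw read counts by Ensembl identifier in the layout of featureCounts, per the file headers, with alignment counts by class. Tools named there, per the submitters' processing notes, are STAR 2.7.10b and featureCounts 2.0.3, with the mm10 build. Strand setting and annotation release were not given in the sources used here. Between 72.4% and 77.8% of alignments were assigned to genes. Another 2 columns of counts could be tied to no labelled sample and stayed unused. Symbols were matched by Ensembl ID for 51948 of 56941 genes. Gene starts differed by over 1 kb from RefSeq's GRCm38.p6 for 36 of 37 members, so the table's coordinates, whose build is unresolved, are not printed.

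Counts were analysed with edgeR 4.0.16 in R 4.3.3: filterByExpr (18562 of 33412 genes with any count), TMM scaling, robust glmQLFit and glmQLFTest of EC-KO against FL without covariates, two-sided, Benjamini-Hochberg adjusted over all genes tested, threshold 0.05. Standard errors are the absolute log2 fold change over the square root of F. The common biological coefficient of variation was 25.5%. TPM used the gene length in the deposited table. The 16 alternatives are listed with their effect in the closing section and include DESeq2 1.42.0 and limma-voom (limma 3.58.1). The test was checked on simulated counts. All 37 genes are named. Of the other pathway genes, the rule named all receptors, JAK-STAT genes, inhibitors and IRF factors, and up to 5 called per direction by smallest p from each further list. Of the genes this rule names, 3 are not reported here, though counts over lists include them. Ifng, Ifitm3, B2m and H2-K1, and the ratios between genes, were chosen after their values were seen. The members and lists were chosen with earlier results of these data known. Of 137 other pathway genes listed, 136 were matched and 116 tested. The labels state no pairing, so replicate numbers were used as a block only in an alternative. Motifs were searched on both strands with Python 3.11.15, and figures drawn with matplotlib 3.10.9.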

Additional observations from a re-analysis of the deposited data

How the results depend on the processing

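Single genes were given 1264 alternative values, of which 1131 kept their direction and side of the threshold, 89 fell below it, 12 rose past it and 32 changed sign. RLE scaling, no filter, a fit that was not robust and limma-voom kept all 7 member calls, as did the filter of 1 CPM in 3 libraries and DESeq2, which added Irf7. Library sizes that leave out mitochondrial genes kept 6 of the 7 and lost the call of Xaf1. Upper-quartile and library-size scaling moved the median of all genes from 0.03 to 0.11 and 0.12 and that of the members to 0.40. With both, Oas2 was at 0.05 and Ifnar2 at 0.04, and Ptpn1 at 0.02 and 0.04, all 3 with changed sign. Leaving out single libraries gave 2547 to 6740 called genes against 5029, 1 to 7 members higher, and 6 to 17 other pathway genes higher and 9 to 25 lower. Over the same fits, the genes that changed sign ranged from -0.71 to 0.04 (Ifit2), -0.20 to 0.13 (Oas2), -1.33 to 0.38 (Mx1), -0.16 to 0.45 (Mx2), -0.38 to 0.06 (Gbp7), -0.19 to 0.19 (Igtp), -0.38 to 0.22 (Isg15), -0.23 to 0.01 (Ddx58), -0.02 to 0.47 (Dhx58), -0.10 to 0.35 (Cmpk2), -0.04 to 0.55 (Bst2), -0.05 to 0.45 (Ifi27l2a), 0.00 to 0.47 (Rtp4), -0.16 to 0.06 (Ifnar2), -0.08 to 0.20 (Ifngr1), -0.01 to 0.27 (Jak2) and -0.15 to 0.04 (Ptpn1). The fits that leave out 1 library test 2 against 3 libraries.

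The replicate number as a block (replicate block) gave 1 member higher and 2 lower, against 4 and 3, and 3848 called genes. Deviations of same-numbered libraries correlated at 0.05, 0.07 and -0.18, and not every library correlated best with its own number. With so few libraries these correlations cannot decide whether equal numbers mark a pairing, and the labels state none. Depth limits some values: Apol9a rests on 16 to 36 counts per FL library and Ifnb1 on 40 to 285 counts per library, and the other type I and type III ligands lay at or below 6 counts.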

Other observations

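Ratios of other clustered genes, chosen after their levels had been seen and not tested, gave a mixed picture. Per length, Gbp2 to Gbp7 was 3.37 to 5.17 in FL and 5.61 to 8.59 in EC-KO, and Gbp3 to Gbp7 was 1.21 to 1.68 and 1.94 to 2.80, so both lay higher in EC-KO without overlap. Gbp2 to Gbp3 was 2.78 to 3.07 and 2.88 to 3.63, with overlap. Oas1a to Oas2 was 0.665 to 0.897 in FL and 0.973 to 1.07 in EC-KO. Oasl1 to Oasl2 (1.37 to 3.01 and 1.94 to 3.49) and Mx1 to Mx2 (0.181 to 0.623 and 0.163 to 0.276) overlapped, with the highest Mx ratio in FL 1. Irf9 to Stat2 was 0.870 to 1.03 in FL and 1.09 to 1.25 in EC-KO.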
